A study of Homo sapiens with 6 samples.

Results

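The 10 genes described here encode TNFAIP2 and the core of the NF-κB pathway: the kinase complex IKK (IKBKB, CHUK and IKBKG), the transcription factor subunits RELA, RELB, NFKB1 and NFKB2, and the inhibitors NFKBIA and NFKBIB. They were chosen by symbol, and all 10 were found among the 23384 gene identifiers of the deposited count table, each in 1 row. The libraries came from CAL27, an established line of human oral squamous cell carcinoma. Of the 6 libraries, 3 are from cells transfected with vector, labelled wild type, and 3 are from cells transfected with a TNFAIP2-overexpressing plasmid. The latter are called plasmid-labelled here because the counts show no rise of TNFAIP2 that would bear out that label. All were grown in DMEM with serum. The labels do not say which promoter drives TNFAIP2, whether the line is a pool or a clone, or whether the 3 libraries of a group are separate cultures, so the spread behind each p-value may be a technical one. The title of the series puts the question: whether TNFAIP2 raises NF-κB signalling by keeping IKKβ, the product of IKBKB, from degradation. RNA counts measure transcripts and not the stability of that protein.

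In resting cells, IκB proteins such as the product of NFKBIA hold NF-κB dimers in the cytoplasm. When a receptor such as the TNF receptor is engaged, IKKβ phosphorylates IκB, which is then marked with ubiquitin by the SCF-βTrCP ligase and degraded, and dimers such as RELA with the p50 product of NFKB1 enter the nucleus. A second arm runs through IKKα, the product of CHUK, which acts on the NFKB2 precursor and releases dimers of p52 with RELB. Several of these genes, NFKBIA, NFKB1, NFKB2 and RELB among them, are themselves induced by NF-κB, as is TNFAIP2, which was first known as a gene induced by tumour necrosis factor.

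That feedback acts through κB sites, short sequences that NF-κB binds. RefSeq promoter windows (GRCh38.p14, 250 bases before to 50 after a start) were matched for 8 of the 10 genes, with 16 windows in all; RELB had none and that of IKBKB was not used. The κB consensus of 10 bases, searched on both strands with overlapping matches counted, was present in at least 1 window of 4 of these 8 genes (NFKB1, NFKB2, NFKBIA and NFKBIB) and in none of the windows of TNFAIP2, CHUK, IKBKG and RELA. Over all windows of this length in the table, 11.3% of 35116 held a match, against 5 of the 16 windows here. A match describes letters and is not a measured site. The following windows are shown because 3 of the genes are textbook feedback targets and the fourth is the gene the plasmid carries. Matches are in capitals, and each sequence runs 5′ to 3′ on the gene's strand.
NFKB1 (chr4:102501109-102501408, plus strand): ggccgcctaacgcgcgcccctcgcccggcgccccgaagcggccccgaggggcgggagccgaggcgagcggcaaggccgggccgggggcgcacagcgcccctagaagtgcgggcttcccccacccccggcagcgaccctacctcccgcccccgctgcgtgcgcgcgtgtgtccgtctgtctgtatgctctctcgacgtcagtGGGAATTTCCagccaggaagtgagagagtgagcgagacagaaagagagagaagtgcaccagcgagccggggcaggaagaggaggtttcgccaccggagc
NFKB2 (chr10:102394328-102394627, plus strand): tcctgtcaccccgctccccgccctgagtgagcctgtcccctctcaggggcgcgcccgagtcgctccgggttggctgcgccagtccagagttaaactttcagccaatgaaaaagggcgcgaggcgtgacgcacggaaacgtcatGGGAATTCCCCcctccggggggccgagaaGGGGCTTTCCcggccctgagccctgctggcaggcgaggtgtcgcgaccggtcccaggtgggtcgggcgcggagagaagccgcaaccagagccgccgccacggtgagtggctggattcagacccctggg
NFKBIA (chr14:35404700-35404999, minus strand): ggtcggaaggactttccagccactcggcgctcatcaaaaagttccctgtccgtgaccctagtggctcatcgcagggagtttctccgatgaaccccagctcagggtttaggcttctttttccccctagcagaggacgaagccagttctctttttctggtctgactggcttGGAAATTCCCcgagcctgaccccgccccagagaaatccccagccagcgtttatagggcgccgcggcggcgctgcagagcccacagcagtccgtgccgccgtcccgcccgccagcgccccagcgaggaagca
TNFAIP2 (chr14:103123211-103123510, plus strand): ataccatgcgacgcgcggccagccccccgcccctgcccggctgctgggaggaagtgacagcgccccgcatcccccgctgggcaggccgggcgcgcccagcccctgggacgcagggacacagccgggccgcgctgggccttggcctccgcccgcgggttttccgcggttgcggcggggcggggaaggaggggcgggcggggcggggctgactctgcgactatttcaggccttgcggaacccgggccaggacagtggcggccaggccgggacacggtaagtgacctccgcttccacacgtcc
The match in NFKB1 begins 49 bases before the start, and that in NFKBIA 81 bases before it. In the NFKB2 window matches begin 107, 106 and 78 bases before the start, and the first of these overlaps the next. The group differences of NFKB1, NFKB2 and NFKBIA, given further on, were smaller than their standard errors. That was not particular to them, as it also held for TNFAIP2, IKBKB, RELA and NFKBIB. Those of CHUK, IKBKG and RELB were larger than their standard errors.

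Total counts ran from 3092261 to 3527161 per library. All 8 squamous epithelial markers searched (KRT5, KRT14, KRT6A, KRT17, TP63, CDH1, SFN and DSG3) had counts, with a summed level of 821 to 1266 CPM (counts per library total) in controls and 1018 to 1353 CPM in plasmid-labelled libraries. Leukocyte markers (3 of 4 listed with counts) summed to 4.93 to 5.95 and 3.77 to 6.54 CPM. Fibroblast markers (2 of 4) summed to 0.970 to 2.77 and 1.16 to 5.12 CPM, and endothelial markers (1 of 3) to 4.85 to 9.85 and 5.15 to 11.9 CPM. The library kit keeps strand, and the strand setting of the counting is not given in the sources used here. Pairs of a protein-coding gene and a feature contained in its exons on the opposite strand numbered 368. The feature needed at least 60 counts in all and the gene had no such limit, a choice that favours low ratios. In the median pair, the gene's own count was a small part of the opposite count. The median ratio, called the strand ratio here, ran from 0.0993 to 0.180 in controls (lowest in controls 1 and 2) and from 0.134 to 0.198 in plasmid-labelled libraries. Across those pairs, Spearman's rho between the own and the opposite count was 0.547 to 0.592 within a library, a description across genes that are not independent replicates. All values below are counts under a gene's own name, and what share of each gene's reads they hold was not tested.

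None of the 10 genes passed the test between the groups, and the groups overlapped in every one of them. With edgeR's quasi-likelihood test, 0 of 10 passed an adjusted p of 0.05, against a background of 0% of 11851 genes tested. At an unadjusted p of 0.05 it was 0 of 10, against 4.89% of all genes. DESeq2 and limma-voom also called 0 of the 10. In no gene did the libraries of one group all lie above or below those of the other, a pattern seen in 10.5% of all genes tested. Of the 10 log2 fold changes (plasmid-labelled minus control), 6 were positive, with a median of 0.02, beside 51.9% positive and a median of 0.02 over all genes tested. All 10 genes are protein-coding, and over the 9057 protein-coding genes tested 62.0% were positive with a median of 0.13.

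**Figure D1:**
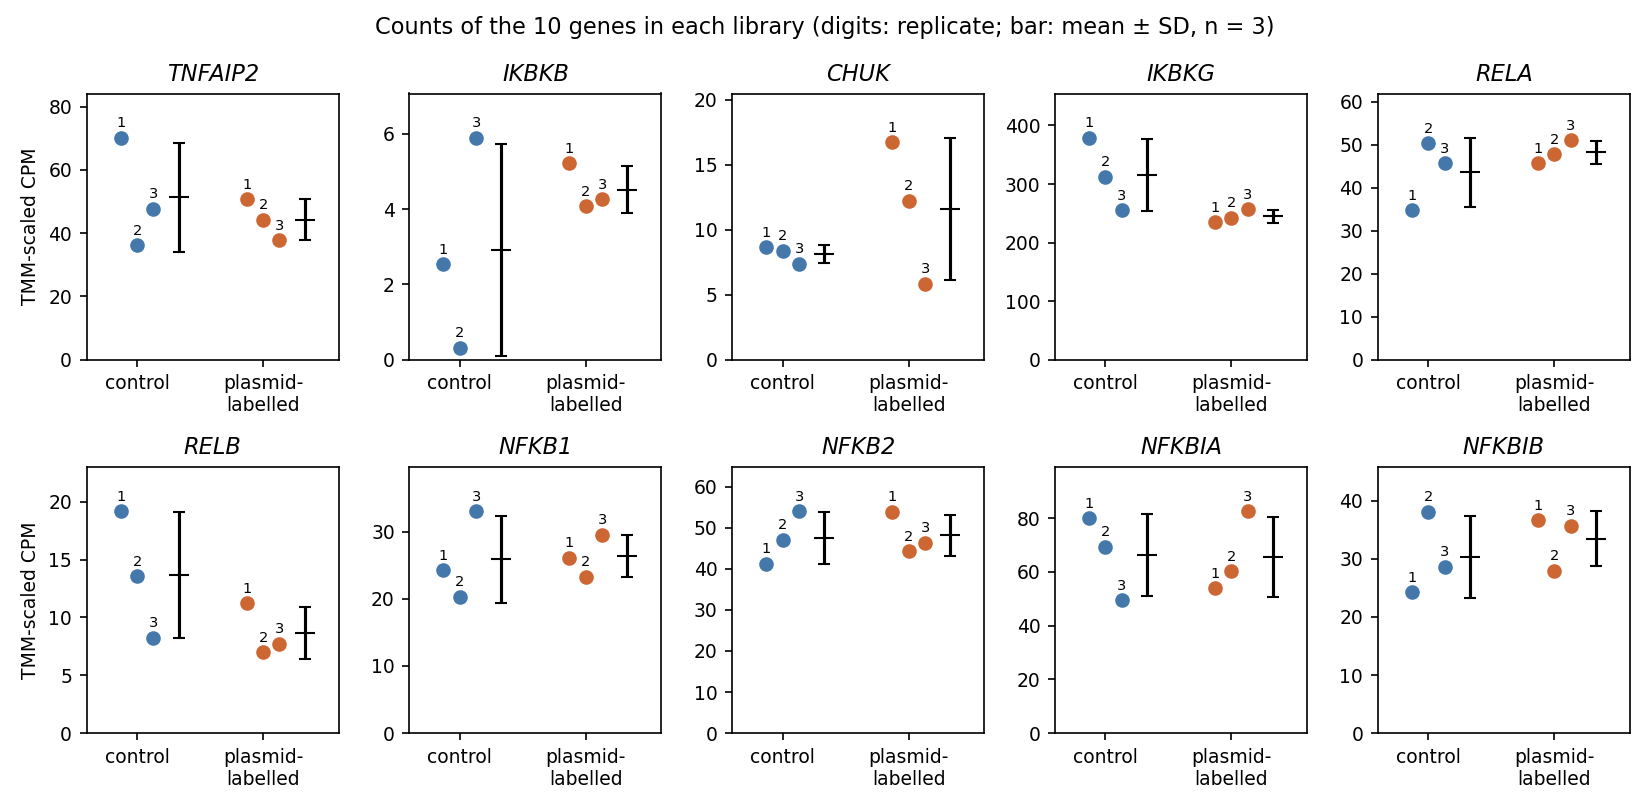
TMM-scaled counts (CPM) of the 10 genes in the 3 control and 3 plasmid-labelled libraries, with mean and SD (n = 3); each panel has its own linear axis from 0, and digits give the replicate. The groups overlap in all 10 panels.

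TNFAIP2 was not higher in the libraries labelled as overexpressing it. In CPM scaled by the TMM method (the unit of every level below), it stood at 70.1, 36.1 and 47.8 for controls 1 to 3 against 50.7, 44.3 and 37.8 for plasmid-labelled libraries 1 to 3. The highest and the lowest library were both controls, so the control range enclosed the other group. The fold change was 0.864 with a 95% interval of 0.580 to 1.29, or -0.21 (SE 0.28) as a log2 fold change, and edgeR's adjusted p = 0.881. The direction turned without control replicate 1 (log2 fold change 0.074). The variation among controls was 33.7% of the mean, above the 7.92% that counting alone gives at a mean of 159 counts. The deposited model of TNFAIP2 (ENSG00000185215) spans chromosome 14, 103121476 to 103137439, plus strand, GRCh38. GENCODE release 29, from which exons were taken, starts it at 103123442, so exons upstream of that point were not examined for overlap. LINC00677, the lncRNA on the other strand across the deposited start, had 0 to 2 counts in each library. These counts thus show no rise of TNFAIP2 that would bear out the group labels. What share of the TNFAIP2 reads they hold was not tested.

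The genes whose profile over the 6 libraries was most like that of TNFAIP2 were POR, L3MBTL2 and CD276, with Pearson's r of 0.983, 0.978 and 0.975 on log2 CPM. They were the top 3 of 8351 genes with a symbol and a mean of at least 5 CPM, and with so many genes and 6 libraries such values describe a shared shape and nothing more. POR encodes the reductase that supplies electrons to cytochromes P450, L3MBTL2 a Polycomb-related chromatin protein and CD276 the immune checkpoint ligand B7-H3. All 3 were highest in control replicate 1, as TNFAIP2 was, and their log2 fold changes were -0.18, -0.10 and -0.11 (edgeR adjusted p = 0.909, 0.954 and 0.937). Among the other 9 genes here, RELA ran the opposite way. It was lowest in control replicate 1, where TNFAIP2 was highest, and highest in control replicate 2 and plasmid-labelled library 3, where TNFAIP2 was lowest. This pair was picked after its values were seen and was not tested.

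The 3 genes of the IKK complex showed no common direction. IKBKB encodes IKKβ, the catalytic subunit of the canonical arm and the protein named in the title. Its counts were 7, 1 and 20 for controls 1 to 3 against 20, 14 and 16 for plasmid-labelled libraries 1 to 3, or 2.53, 0.323 and 5.90 CPM against 5.23, 4.08 and 4.26 CPM. The highest of the 6 values was a control, and controls 1 and 2 were the lowest. IKBKB passed the filter on low counts through 4 libraries, the 3 plasmid-labelled ones and control replicate 3. The fold change was 1.53 with a 95% interval of 0.507 to 4.61 (log2 fold change 0.61, SE 0.77, edgeR adjusted p = 0.874). With this spread, neither a fall nor a rise within those bounds could be told from no difference. The single count in control replicate 2 has an exact Poisson 95% interval of 0.0253 to 5.57 counts, which covers counting error only. Leaving out control replicate 2 gave a log2 value of 0.11, leaving out control replicate 3 gave 1.66, and the value was 0.019 once the strand ratio entered as a covariate. The row lies on chromosome 8, 42271302 to 42332460, plus strand.

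CHUK encodes IKKα, the kinase of the non-canonical arm. It stood at 8.68, 8.39 and 7.37 CPM in controls 1 to 3 and at 16.7, 12.2 and 5.86 CPM in plasmid-labelled libraries 1 to 3. Plasmid-labelled libraries 1 and 2 were above every control and library 3 was below every control. The log2 fold change was 0.51 (SE 0.46, 95% interval -0.44 to 1.46, edgeR adjusted p = 0.844), and it was 0.15 without plasmid-labelled library 1 and 0.83 without replicate 3. CHUK was the only one of the 10 genes that varied more among plasmid-labelled libraries (47.1% of the mean) than among controls (8.42%). Over all genes tested, 68.3% varied more among controls. The gene lies on chromosome 10, 100188300 to 100229596, minus strand. A lncRNA on the other strand, ENSG00000236308 (100190036 to 100190747), shares 77 exonic bases with it. Its counts were 3, 21 and 20 for controls against 24, 32 and 15 for plasmid-labelled libraries, with overlapping groups, and its log2 value was 0.49 (SE 0.63, edgeR adjusted p = 0.878).

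IKBKG encodes NEMO, the regulatory subunit that binds ubiquitin chains and couples the kinases to receptors. It had the highest level of the 10, at 379, 313 and 255 CPM in controls 1 to 3 and at 234, 243 and 257 CPM in plasmid-labelled libraries 1 to 3. Controls 1 and 2 stood above the other 4 libraries, and control replicate 3 lay within the plasmid-labelled range. The log2 fold change was -0.37 (SE 0.20, 95% interval -0.78 to 0.042), with the lowest unadjusted p of the 10 (0.0760, edgeR adjusted p = 0.830). It was -0.50 (adjusted p = 0.0674) without control replicate 3, where 7.41% of all genes passed, and -0.17 (SE 0.17) with the strand ratio as a covariate. The 2 controls with high IKBKG were those with the lowest strand ratio. The covariate thus cannot be told apart from anything else that marks that pair, and the part of the ratio was not tested.

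**Figure D2:**
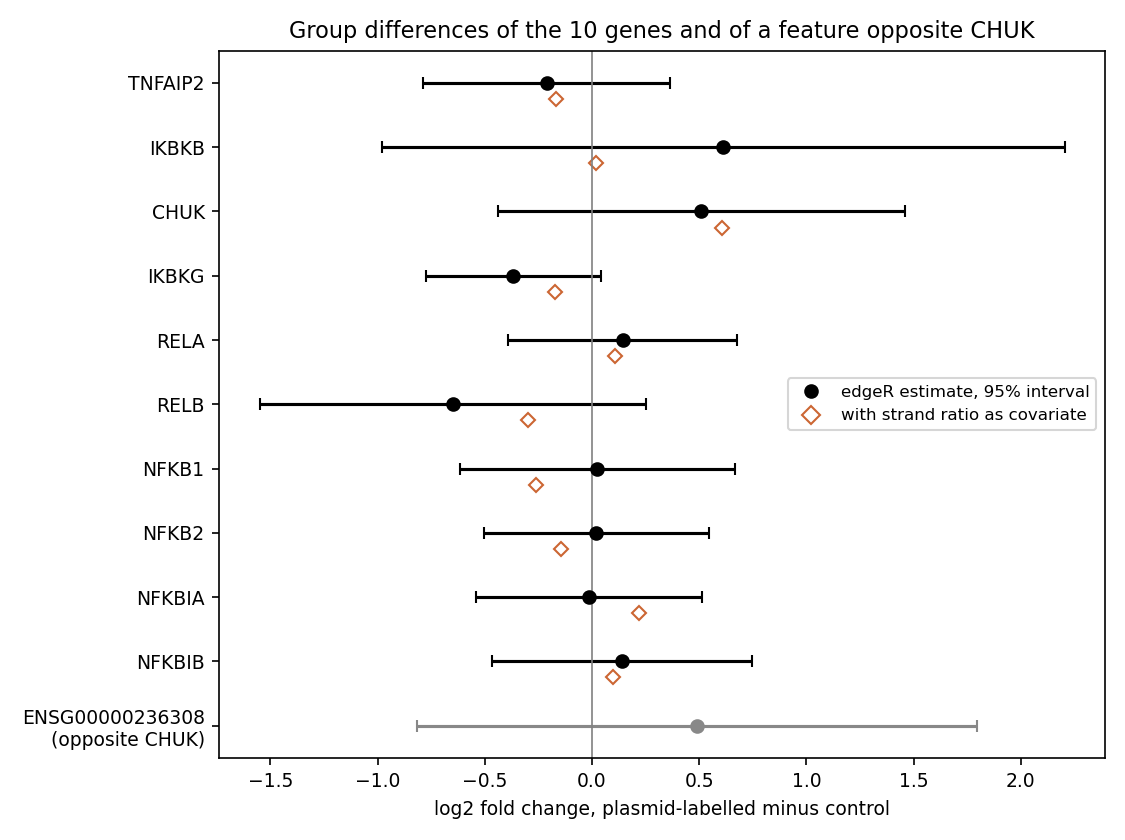
Log2 fold changes (plasmid-labelled minus control) of the 10 genes and of the lncRNA opposite CHUK, with 95% intervals from edgeR; open diamonds give the estimate with the strand ratio as a covariate. Every interval includes 0, and that of IKBKB is the widest.

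Among the transcription factor subunits, RELA, NFKB1 and NFKB2 had log2 fold changes near 0, and RELB had the lowest value of all 10 genes. RELA encodes p65, which carries the activation domain of the canonical dimer. It stood at 34.7, 50.3 and 45.7 CPM in controls 1 to 3 and at 45.7, 47.8 and 51.1 CPM in plasmid-labelled libraries 1 to 3. Leaving aside the low control replicate 1, the 5 other libraries lay between 45.7 and 51.1 CPM. The log2 fold change was 0.14 (SE 0.26, 95% interval -0.39 to 0.68, edgeR adjusted p = 0.904) and 0.0034 without control replicate 1.

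NFKB1 encodes p105 and its product p50, the usual partner of p65. It stood at 24.2, 20.3 and 33.0 CPM in controls 1 to 3 and at 26.1, 23.3 and 29.5 CPM in plasmid-labelled libraries 1 to 3. The plasmid-labelled values lay wholly inside the control range. The fold change was 1.02 with a 95% interval of 0.652 to 1.59 (edgeR adjusted p = 0.988).

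NFKB2 encodes p100, which is an inhibitor until it is cut to p52. It stood at 41.2, 47.1 and 54.0 CPM in controls and at 53.8, 44.3 and 46.3 CPM in plasmid-labelled libraries. Here too the plasmid-labelled values lay inside the control range, and the fold change was 1.01 (95% interval 0.706 to 1.46, edgeR adjusted p = 0.987). The sign of both values was not stable, and with the strand ratio as a covariate the log2 fold changes were -0.26 (SE 0.31) for NFKB1 and -0.14 (SE 0.25) for NFKB2. PSD, on the other strand of chromosome 10, spans 102402617 to 102421539. Its 3′ end, at 102402617, lies just past the end of NFKB2 at 102402524. PSD was picked after its values were seen. Its CPM values were 60.4, 69.7 and 45.7 in controls and 34.8, 44.3 and 43.9 in plasmid-labelled libraries, without overlap between the groups (as for 4.92% of genes tested in that direction). Its difference of -0.51 on the log2 scale (SE 0.26) did not pass (edgeR adjusted p = 0.830).

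RELB encodes the partner of p52 in the non-canonical dimer. It stood at 19.2, 13.5 and 8.26 CPM in controls 1 to 3 and at 11.2, 6.99 and 7.72 CPM in plasmid-labelled libraries 1 to 3. Controls 1 and 2 were above every other library, and control replicate 3 lay among the plasmid-labelled ones. The fold change was 0.638 with a 95% interval of 0.342 to 1.19 (log2 fold change -0.65, SE 0.43, edgeR adjusted p = 0.830). The log2 value lay at -0.92 without control replicate 3, at -0.33 without control replicate 1 and at -0.30 (SE 0.54) with the strand ratio as a covariate. RELB and IKBKG were the 2 of 10 genes whose highest values were those of controls 1 and 2, and IKBKB was the 1 of 10 whose lowest were. Over all genes tested, 17.2% had their highest and 19.5% their lowest values in that pair. Among the 9057 protein-coding genes tested, the class of all 10 genes here, 869 had their highest and 2251 their lowest values there.

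Neither inhibitor gene differed between the groups by more than its spread. NFKBIA encodes IκBα, the inhibitor that canonical signalling degrades and then resynthesises. It stood at 79.9, 69.4 and 49.5 CPM in controls 1 to 3 and at 53.8, 60.3 and 82.5 CPM in plasmid-labelled libraries 1 to 3. Each group held both low and high libraries, and the SDs were nearly the same, at 15.4 and 15.04 CPM. The fold change was 0.991 with a 95% interval of 0.687 to 1.43 (edgeR adjusted p = 0.992). The sign of its log2 value was not stable under the alternatives tried.

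NFKBIB encodes IκBβ, an inhibitor that is degraded more slowly. It stood at 24.2, 38.1 and 28.6 CPM in controls and at 36.6, 28.0 and 35.7 CPM in plasmid-labelled libraries. The highest and the lowest values were both controls. The fold change was 1.10 (95% interval 0.725 to 1.68, log2 fold change 0.14, SE 0.29, edgeR adjusted p = 0.918).

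**Figure D3:**
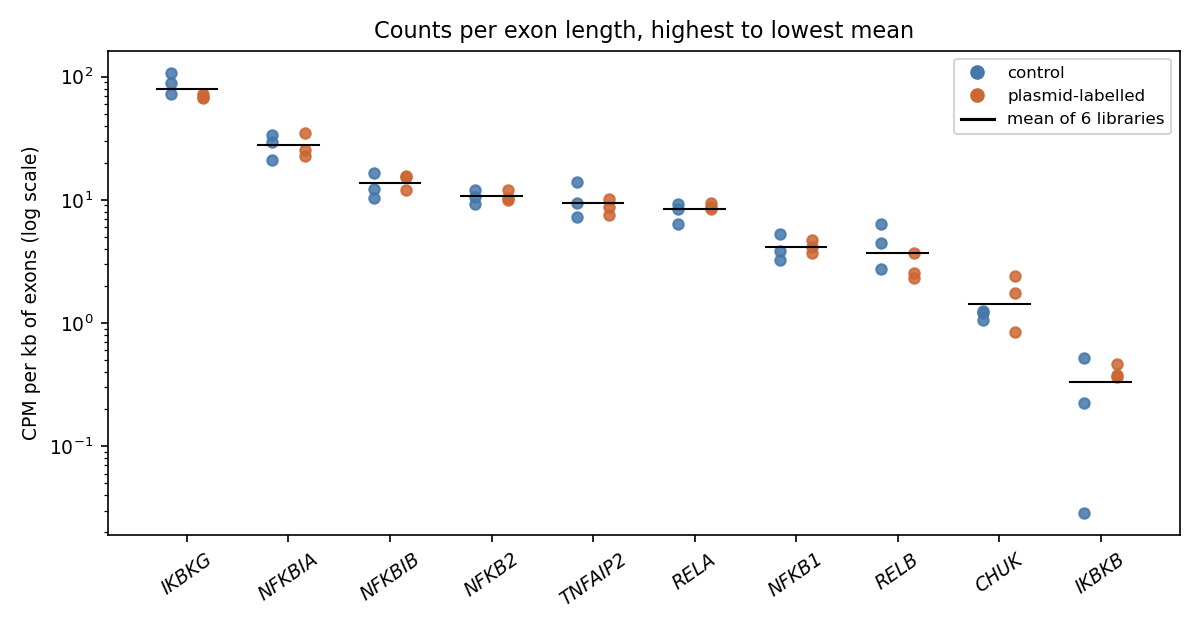
CPM per kb of exons for each of the 10 genes on a log axis, in the 3 control and 3 plasmid-labelled libraries, ordered by the mean of all 6 (lines). IKBKG lies highest and IKBKB lowest.

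Set on exon length, the level of the 10 genes ranged from 79.4 ± 15.8 CPM per kb for IKBKG to 0.331 ± 0.180 CPM per kb for IKBKB (SD over all 6 libraries). Levels in CPM per kb were 27.8 ± 5.74 for NFKBIA, 13.7 ± 2.43 for NFKBIB and 10.7 ± 1.15 for NFKB2. They were 9.51 ± 2.44 for TNFAIP2 and 8.40 ± 1.08 for RELA. Below these came NFKB1 at 4.17 ± 0.730, RELB at 3.67 ± 1.53 and CHUK at 1.43 ± 0.572 CPM per kb. The ranges over the 6 libraries did not overlap between IKBKG and NFKBIA, NFKBIA and NFKBIB, RELA and NFKB1, or CHUK and IKBKB. Neighbours from NFKBIB down to RELA overlapped, as did NFKB1 with RELB and RELB with CHUK. Exon lengths merge all models of release 29, from 2324 bases for NFKBIB to 11241 for IKBKB, so a gene with many unused exons reads low. Because the own-strand share of reads was not measured for each gene, this order is one of deposited counts and not of transcripts.

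**Figure D4:**
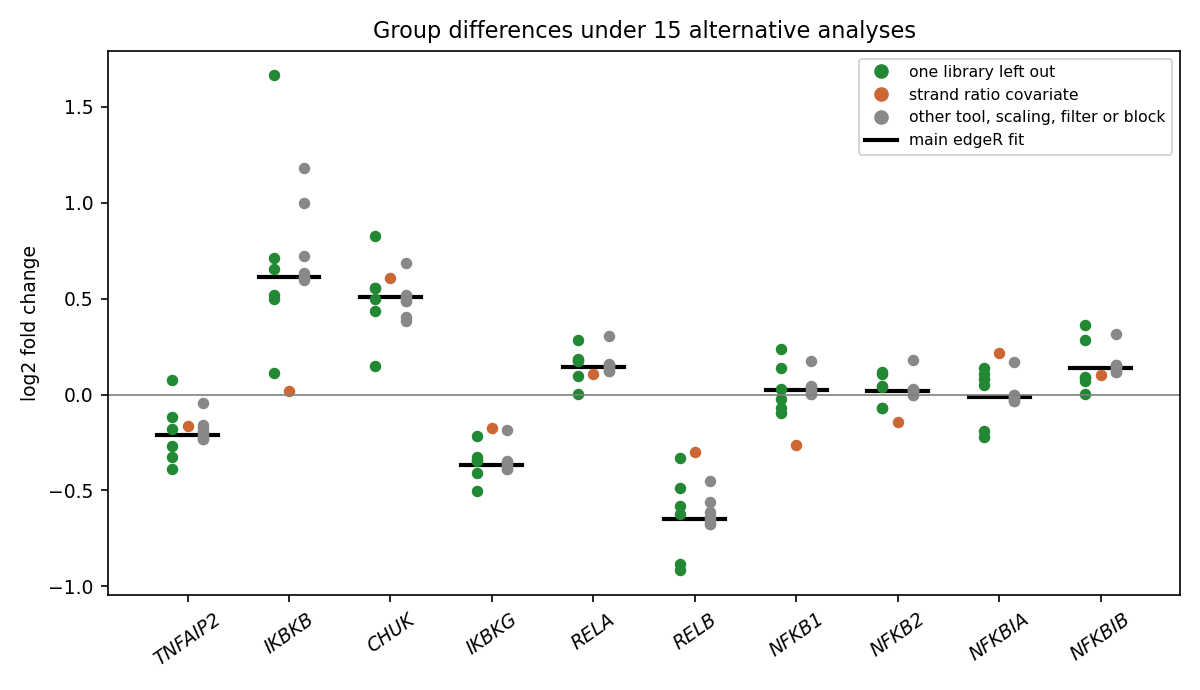
Log2 fold changes of the 10 genes in the main edgeR fit (lines) and in 15 alternative analyses (points), coloured by kind. The values of TNFAIP2, NFKB1, NFKB2 and NFKBIA fall on both sides of 0, and those of IKBKB spread the most.

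The rest of the pathway was examined through 42 further genes in 6 roles, of which 35 were tested. REL, NFKBIZ, NFKBID, BTRC, COMMD1 and EXOC3L2 were too low to be tested, and EXOC3L4 was not found among the symbols of the deposited count table. By edgeR, 0 of 35 passed an adjusted p of 0.05 in either direction, as did 0% of all genes tested. An unadjusted edgeR p below 0.05 was found for 3 of 35 (ERC1, TNFAIP3 and EXOC3). Over all genes tested it was 4.89%, and among protein-coding genes 324 of 9057. Positive log2 fold changes were found for 28 of 35, with a median of 0.22, beside 62.0% positive and a median of 0.13 over all 9057 protein-coding genes tested. Controls 1 and 2, which had the lowest strand ratios, held the 2 lowest values of 11 of the 35 genes, and of 24.9% of the protein-coding genes. With the strand ratio as a covariate, 19 of 35 values were positive with a median of 0.020, beside 49.0% and -0.0086 over the protein-coding genes, and the part of that ratio in the result was not tested. Without control replicate 3 the median was 0.444, beside 0.23 over the protein-coding genes, and without control replicate 1 it was 0.107, beside 0.080.

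The upstream kinases and adaptors, which carry the signal from receptors to IKK, had 8 of 9 positive values (median 0.66). Over protein-coding genes 62.0% were positive. Controls 1 and 2 held the 2 lowest values of 5 of these 9 genes, and of 24.9% of protein-coding genes. IKBKE, an IKK-related kinase, had 17.1 ± 8.74 CPM in controls and 19.2 ± 6.26 CPM in plasmid-labelled libraries (SD, n = 3). TAB3, an adaptor of the kinase TAK1, had 16.5 ± 16.6 and 13.6 ± 6.11 CPM, with 35.7 CPM in control replicate 3 alone. IKBKE (377 counts in all) shares 156 exonic bases with C1orf147 on the other strand (1834 counts). TAB3 (313 counts) lies opposite TAB3-AS1 (84) and TAB3-AS2 (1092). The SCF-βTrCP ligase and its E2 enzymes, which mark IκB for the proteasome, had 6 of 8 positive values (median 0.26). UBE2D3 and UBE2D2, which encode such E2 enzymes, had 43.8 ± 31.7 and 41.4 ± 23.2 CPM in controls and 54.5 ± 10.5 and 48.4 ± 10.7 CPM in plasmid-labelled libraries. UBE2D3 (1030 counts) lies opposite UBE2D3-AS1 (24 counts).

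Cofactors of IKK and genes tied to IKKβ turnover had 7 of 7 positive values (median 0.23), beside 62.0% of protein-coding genes. The chaperone genes HSP90AB1 and HSP90AA1, whose products stabilise the kinase complex, had 814 ± 279 and 158 ± 42.0 CPM in controls and 969 ± 134 and 203 ± 30.7 CPM in plasmid-labelled libraries. Both had their lowest values in controls 1 and 2. HSP90AA1 (3728 counts) lies opposite WDR20 (259 counts). ERC1, which encodes the IKK-binding protein ELKS, stood at 3.25, 2.90 and 2.65 CPM in controls and at 6.27, 13.1 and 4.52 CPM in plasmid-labelled libraries. The groups did not overlap, yet the difference did not pass (log2 fold change 1.43, SE 0.60, edgeR adjusted p = 0.830). ERC1 had 9 counts in each control. It passed the filter on low counts through 4 libraries, the 3 plasmid-labelled ones and control replicate 1. ERC1 thus entered the test through the plasmid-labelled group, where it was higher, and it was named after its values were seen.

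Of the role listed as REL and atypical IκB genes, only NFKBIE, BCL3 and NKRF were tested, and REL itself was not. Log2 fold changes were positive for NFKBIE (0.32) and NKRF (0.39) and negative for BCL3 (-0.12), with a median of 0.32. BCL3, which encodes a nuclear IκB, had 9.39 ± 0.529 and 8.70 ± 6.70 CPM in the control and plasmid-labelled libraries. NKRF, which encodes a repressor of NF-κB targets, had 6.35 ± 1.98 and 8.33 ± 2.96 CPM. NKRF (153 counts) lies opposite UBE2A (2984 counts).

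Negative regulators had 5 of 6 positive values (median 0.088). TNFAIP3 encodes the ubiquitin-editing enzyme A20, a standard NF-κB feedback gene. It stood at 70.9, 41.6 and 64.6 CPM in controls 1 to 3 and at 104.8, 77.2 and 85.4 CPM in plasmid-labelled libraries 1 to 3. All plasmid-labelled libraries were above all controls, without passing the test (log2 fold change 0.60, SE 0.25, edgeR unadjusted p = 0.0251, adjusted p = 0.830). TNFAIP3 (1531 counts) shares 95 exonic bases with WAKMAR2 on the other strand (578 counts). TNIP1, which encodes a partner of A20, had 146 ± 11.2 and 158 ± 27.1 CPM. TNFAIP3 and ERC1 were the 2 of 35 genes with the plasmid-labelled group wholly higher, near the 5.54% found over all genes.

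The SEC6 family, to which TNFAIP2 belongs by sequence, had 2 tested genes, both with negative values. EXOC3, the exocyst subunit, stood at 591, 584 and 375 CPM in controls and at 331, 385 and 375 CPM in plasmid-labelled libraries (log2 fold change -0.51, SE 0.20, edgeR unadjusted p = 0.0207, adjusted p = 0.830). Like IKBKG and RELB, it was high in controls 1 and 2 and not in control replicate 3. EXOC3 (8709 counts) lies opposite SLC9A3 (1018 counts), with 839 shared exonic bases, so reads of either may be counted under this name. The lncRNA PP7080 (55 counts) also shares 839 exonic bases with it on the other strand. EXOC3L1 had 4.36 ± 2.41 and 3.18 ± 3.58 CPM.

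**Figure D5:**
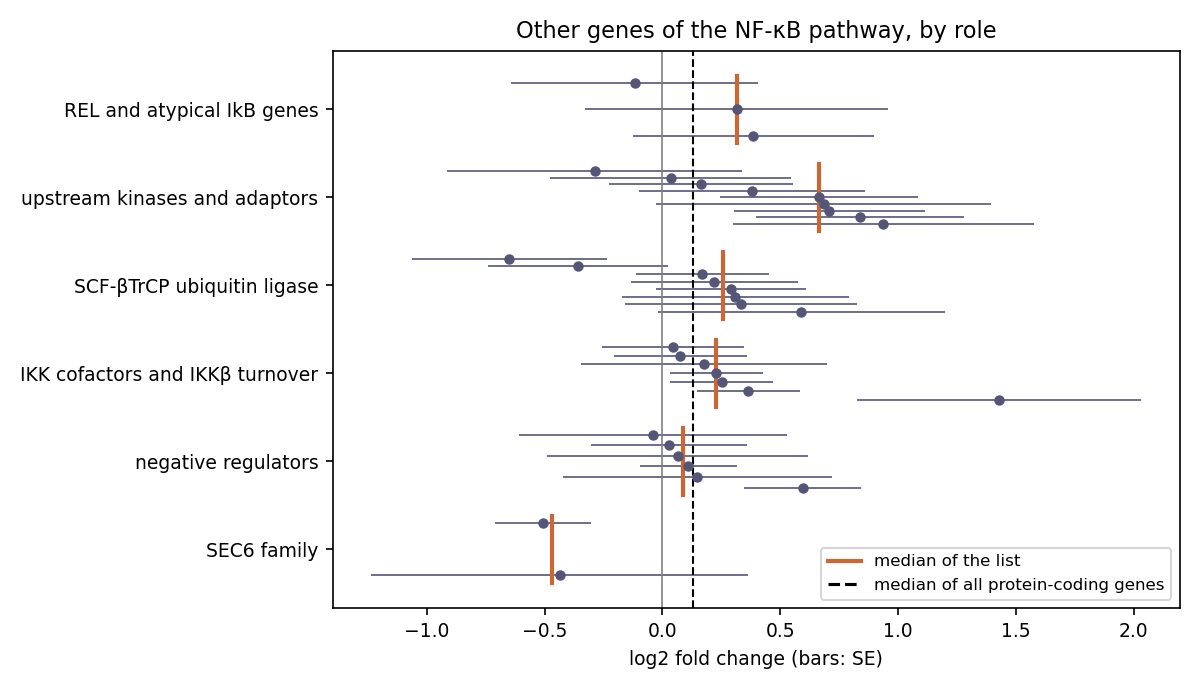
Log2 fold changes with SE of the 35 tested pathway genes, grouped by role, with the median of each list and the median of all protein-coding genes (dashed). Most points lie right of 0, as do those of protein-coding genes in general, and none passed the test.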

How the data were processed

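For 6 libraries, the table that the authors deposited holds raw counts per gene, without normalization. Per the submitters' processing notes, the tools were HTSeq 0.13.5, HISAT2 2.2.0 and Trim Galore 0.6.4, and the build was GRCh38. Neither the counting strand nor the annotation release is given in the sources used here. Groups came from the sample titles and columns from the names the labels give.

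All genes passing filterByExpr (11851) were fitted with edgeR 4.0.16 in R 4.3.3, with TMM scaling, a robust quasi-likelihood fit and Benjamini-Hochberg adjustment over all of them, at a threshold of 0.05. The code was tested on simulated data. SEs came from the F statistic. Exons of GENCODE release 29 gave lengths and opposite-strand overlaps of at least 50 bases. A feature counted as contained when 90% or more of its exonic bases overlapped and it had no fewer than 60 counts in all, and 0.5 was added to both counts of a strand ratio.

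The 10 genes, the pathway list and the tests were chosen with earlier results of these data known. Named were the 10 genes, features opposite them (one is not reported here), the 2 most abundant genes of each role and the 3 genes most like TNFAIP2. Alternatives were DESeq2 1.42.0, limma-voom (limma 3.58.1), other scalings and filters, a replicate block, the strand ratio as a covariate and leaving out each library.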

Additional observations from a re-analysis of the deposited data

How the results depend on the processing

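In all 15 alternatives 0 of the 10 genes passed. IKBKB, CHUK, IKBKG, RELA, RELB and NFKBIB kept their sign in all 15, and TNFAIP2 did in 14. A kept sign could still go with almost no difference, as low as 0.0020 for NFKBIB, 0.0034 for RELA and 0.019 for IKBKB. The weakest values were 0.15 for CHUK, -0.17 for IKBKG and -0.30 for RELB. Leaving out each library in turn gave log2 fold changes of -0.39 to 0.074 for TNFAIP2, -0.096 to 0.24 for NFKB1, -0.072 to 0.12 for NFKB2 and -0.22 to 0.14 for NFKBIA. NFKB2 was -0.0018 with DESeq2 and -0.0014 with its size factors in edgeR. With the strand ratio as a covariate, NFKB1 was -0.26, NFKB2 -0.14 and NFKBIA 0.22. With library totals in place of TMM, NFKBIA was 0.17 where the median of all genes had moved to 0.18, and relative to that median NFKB1 stood at -0.010, NFKB2 at -0.0030 and NFKBIA at -0.013. For these turns of sign the cause was not tested. Over all genes, DESeq2 called 3, limma-voom 1 and the unfiltered fit 3, against 0 in the main fit, and leaving out single libraries gave 0 to 922, the highest without control replicate 3. The median of the other pathway genes ran from 0.107 to 0.444 when single libraries were left out. With the replicate number as a block, 0 genes passed over the whole table, and IKBKB stood at 1.00 (SE 0.86). The labels do not say that a number marks a shared culture, and the deviations of same-numbered libraries correlated at -0.25, 0.15 and -0.047, so the numbers were not taken to pair the libraries. Counting error was largest for IKBKB, RELB and CHUK, at 27.7, 16.6 and 17.2% for mean counts of 13, 36.5 and 33.8. Their variation among controls was 96.2, 39.9 and 8.42% of the mean, and among plasmid-labelled libraries 13.7, 26.3 and 47.1%. In each of these genes a group varied more than counting alone gives.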
